A study of Oryza sativa with 12 samples.

Results

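The genes described here encode the machinery that copies chromosomal DNA, together with the H2B histones that package the new DNA. They were chosen by name: a probe set (called a probe below) was kept if it maps to 1 gene whose symbol or synonym is ORC, MCM or RFC with a number, PCNA, FEN1, RPA with digits, or H2A or H2B with a dot and a number. The rule found 37 genes, each with 1 probe, among 36643 probes on the array, of which 24161 carry 1 gene name. They comprise 6 origin recognition genes (ORC1 to ORC6), 7 helicase genes (MCM2, MCM3, MCM5, OsMCM6, MCM7, MCM8 and MCM9), 8 genes for the sliding clamp, its loader and the flap endonucleases (PCNA, FEN1A, FEN1B and RFC1 to RFC5), 7 genes for the single-strand binding protein RPA, and 9 H2B genes. The histones are H2B only, since 0 H2A probes met the rule. The table entry of the gene named ORC5 here also carries the synonym OsORC1.

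Total RNA came from germinating rice embryos (Oryza sativa, cultivar Dongjin) and was hybridised to Affymetrix RJpGene-1_1-st arrays, 12 in all; each of the 6 conditions has 2. All embryos germinated in darkness at 28 °C for 24 h, on or in 10 mM calcium chloride. The conditions GlcAC and MtlAC held 60 mM glucose or 60 mM mannitol, and the labels do not spell out AC; it is read here as the submerged incubation under nitrogen that the protocol describes, and the name AC is kept. GlcDNP and MtlDNP held the same sugars in air with 0.08 mM 2,4-dinitrophenol (DNP), an uncoupler of mitochondrial respiration. Glc and Mtl held 60 mM glucose or 60 mM mannitol in air without DNP; mannitol is a sugar alcohol commonly used as an osmotic control for sugars. The series asks how transcripts in these embryos respond to sugar, energy and oxygen.

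As background, eukaryotic DNA replication begins where the origin recognition complex binds DNA and loads the MCM helicase. The helicase opens the strands, RPA coats the exposed single strands, replication factor C (RFC) loads the PCNA clamp that holds the polymerases, and FEN1 trims the primer flaps of the lagging strand. Histones are made mainly while DNA is copied, so transcripts of these genes are commonly used as signs of cells in S phase. In Arabidopsis seedlings, glucose is known to activate S-phase genes through the TOR kinase and E2F transcription factors. In germinating cereal embryos, the start of DNA synthesis follows the resumption of respiration and early transcription.

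The replicates are called technical in the series' design text, so the p-values below measure the spread between arrays, which may not include the spread between batches of embryos. The within-array SD of all probes was 1.77 on both GlcAC arrays, 1.66 and 1.67 in GlcDNP, 1.81 and 1.86 in Glc, 1.67 and 1.68 in MtlAC, 1.64 and 1.68 in MtlDNP, and 1.83 and 1.85 in Mtl. Levels therefore spread less with DNP and in MtlAC than in Glc and Mtl. The 2 arrays of a condition correlated with r between 0.95 and 0.976 over all probes. Of 6 embryo markers (Emp1, LEA-3, OLE18, OSH1, OSH15 and RAB21), the median log2 level on an array lay between 5.57 and 5.78 in GlcAC, 6.71 and 6.92 in GlcDNP, 4.66 and 4.83 in Glc, 6.35 and 6.70 in MtlAC, 6.96 and 7.01 in MtlDNP, and 5.28 and 5.43 in Mtl. Averaged over the 12 arrays, Emp1, LEA-3, OLE18 and RAB21 had 7.30, 7.58, 7.52 and 4.73, above the median of all probes, 3.29. OSH1 and OSH15 had 3.17 and 2.46, below it. Whether these levels mark embryo tissue was not tested. Between Glc and Mtl, 1 of the 6, RAB21, was called, and 4 had a positive and 2 a negative difference, with a median of 0.11. The array medians of 10 starchy endosperm markers lay between 1.83 and 2.36 in GlcAC, 2.23 and 2.29 in GlcDNP, 1.75 and 1.94 in Glc, 2.67 and 2.88 in MtlAC, 2.41 and 2.46 in MtlDNP, and 2.04 and 2.05 in Mtl. Those of 4 green shoot markers lay between 2.13 and 3.09 and those of 2 aleurone markers between 2.05 and 2.59. In whole embryos, fewer dividing cells and less of a transcript per cell cannot be told apart.

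Levels are deposited log2 expression values, and differences between them are log2 differences. Probes bind with different strength, so levels are compared between conditions and not between genes. The median of all probes, each averaged over the 12 arrays, was 3.29, and 18 of the 37 replication genes lay above it and 19 below. No filter on low values was applied, and all 37 were tested. A gene is called when its adjusted p in limma, fitted over all 36643 probes and 12 arrays and adjusted by the Benjamini-Hochberg method over all probes, is under 0.05 and its log2 difference is at least 1 in size, which is a fold of 2. Values after ± are standard errors from that fit, with 2 arrays in each condition.

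Replication transcripts stood highest in embryos given glucose in air. The mean of the 2 arrays was highest in Glc for 25 of the 37 genes, or 67.6%, against 18.3% of all probes. Both Glc arrays lay above every other array for 21 of the 37, against 6.92% of all probes. The remaining maxima were in GlcAC for H2B.7, in GlcDNP for RFC2, OsRPA32C and OsRPA70c, in MtlAC for H2B.4, in MtlDNP for ORC5, MCM9 and H2B.5, and in Mtl for FEN1B, RFC1, RFC4 and OsRPA70a. In all, 16 genes were called in at least 1 of the 9 pairwise comparisons and 21 in none, while 25.2% of all probes were called in at least 1.

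In Glc against Mtl, 6 of the 37 genes rose and 0 fell; 0.469% of all probes were called higher in this comparison. The 6 were ORC3, ORC6, OsRPA70b, H2B.2, H2B.3 and H2B.9, with log2 differences from 1.09 to 1.45. RFC5 (0.90 ± 0.19, adjusted p = 0.0409) and H2B.11 (0.86 ± 0.17, adjusted p = 0.0313) passed the p threshold in limma but not the size. The median difference over the 37 was 0.49, beside 0.04 over all probes, and the 2 Glc arrays lay above both Mtl arrays for 29 of 37, or 78.4%, against 24.4% of all probes. By role, the median difference was 0.54 for origin recognition, 0.64 for the helicase, 0.22 for the clamp and loader group, 0.48 for RPA and 0.65 for the histones. The calls depend on single arrays. All 6 were lost without Glc replicate 2, and all but ORC3 without Mtl replicate 2. ORC3 and H2B.2 were lost without Glc replicate 1, and ORC3, ORC6 and H2B.2 without Mtl replicate 1. With the 4 arrays compared fitted alone, 1 call was kept, that of ORC6.

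**Figure D1:**
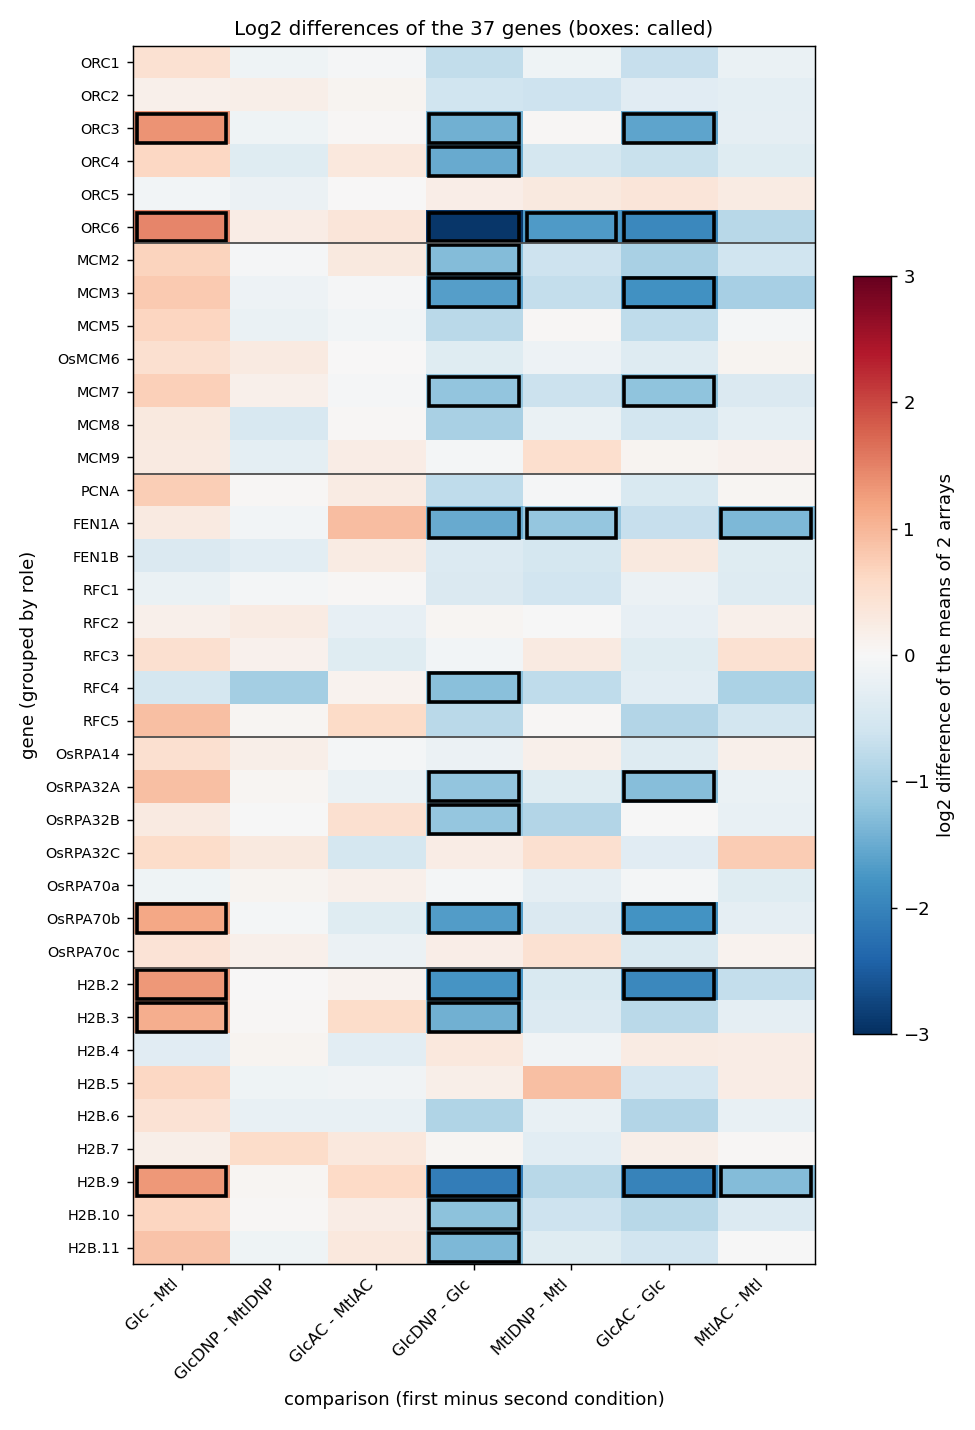
Log2 differences of the 37 genes (rows, grouped by role: origin recognition, helicase, clamp with loader and flap endonucleases, RPA, H2B) in 7 comparisons (columns, first minus second condition, 2 arrays each). Red is higher and blue lower in the first condition, and black boxes mark called genes: 6 for Glc minus Mtl, 16 for GlcDNP minus Glc, 8 for GlcAC minus Glc, and 2 each for MtlDNP minus Mtl and MtlAC minus Mtl.

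No sugar call was made in the other incubations. With DNP, GlcDNP against MtlDNP gave 0 calls in either direction among the 37, beside 0.0109% of all probes called higher and 0.00273% called lower in limma. The median difference was 0.005, and at an unadjusted p under 0.05 there were 0 genes higher and 1 lower, beside 3.57% and 3.59% of all probes. The 1 was RFC4 (-1.01 ± 0.25, adjusted p = 0.438 in limma). Under AC, GlcAC against MtlAC gave 0 calls in either direction in limma. Of all 36643 probes, 2.27% were called higher and 144 probes were called lower, so 0 among the 37 is near these shares. The median difference was 0.04, with 5 of the 37 higher and 1 lower at an unadjusted p under 0.05, beside 10.1% of all probes higher and 6.72% lower. FEN1A (0.93 ± 0.21, adjusted p = 0.043) passed the p threshold but not the size.

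In GlcDNP against Glc, 16 of the 37 genes fell and 0 rose, with 9.28% of all probes called lower and 4.67% higher. The median difference was -0.82, beside 0.10 over all probes, and both GlcDNP arrays lay below both Glc arrays for 26 genes, against 28.3% of all probes. Calls fell in every role: 3 of 6 origin recognition genes, 3 of 7 helicase genes, 2 of 8 in the clamp and loader group, 3 of 7 RPA genes and 5 of 9 histone genes. The role medians were -1.09, -0.96, -0.60, -0.17 and -1.23 in that order. In MtlDNP against Mtl, 2 of the 37 fell, ORC6 and FEN1A, with 10.4% of all probes called lower; this share is above that of the 37. The median difference was -0.31, beside 0.15 over all probes, and both MtlDNP arrays lay below both Mtl arrays for 19 genes, against 29.1% of all probes. The count of 2 became 4 without Mtl replicate 2 and 4 without MtlDNP replicate 1.

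In GlcAC against Glc, 8 of the 37 genes fell and 0 rose, with 3.25% of all probes called lower. They were ORC3, ORC6, MCM3, MCM7, OsRPA32A, OsRPA70b, H2B.2 and H2B.9. The median difference was -0.55, beside 0.03 over all probes, and both GlcAC arrays lay below both Glc arrays for 28 genes, against 25.3% of all probes. Role medians were -0.68 for origin recognition, -0.77 for the helicase, -0.34 for the clamp and loader group, -0.39 for RPA and -0.80 for the histones. In MtlAC against Mtl, 2 of the 37 fell, FEN1A and H2B.9, with 8.65% of all probes called lower. The median difference was -0.26, beside 0.10 over all probes, and both MtlAC arrays lay below both Mtl arrays for 16 genes, against 29.3% of all probes. The comparisons of Glc with Mtl, GlcDNP and GlcAC share the Glc arrays, so a gene high on those 2 arrays appears in each of them.

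**Figure D2:**
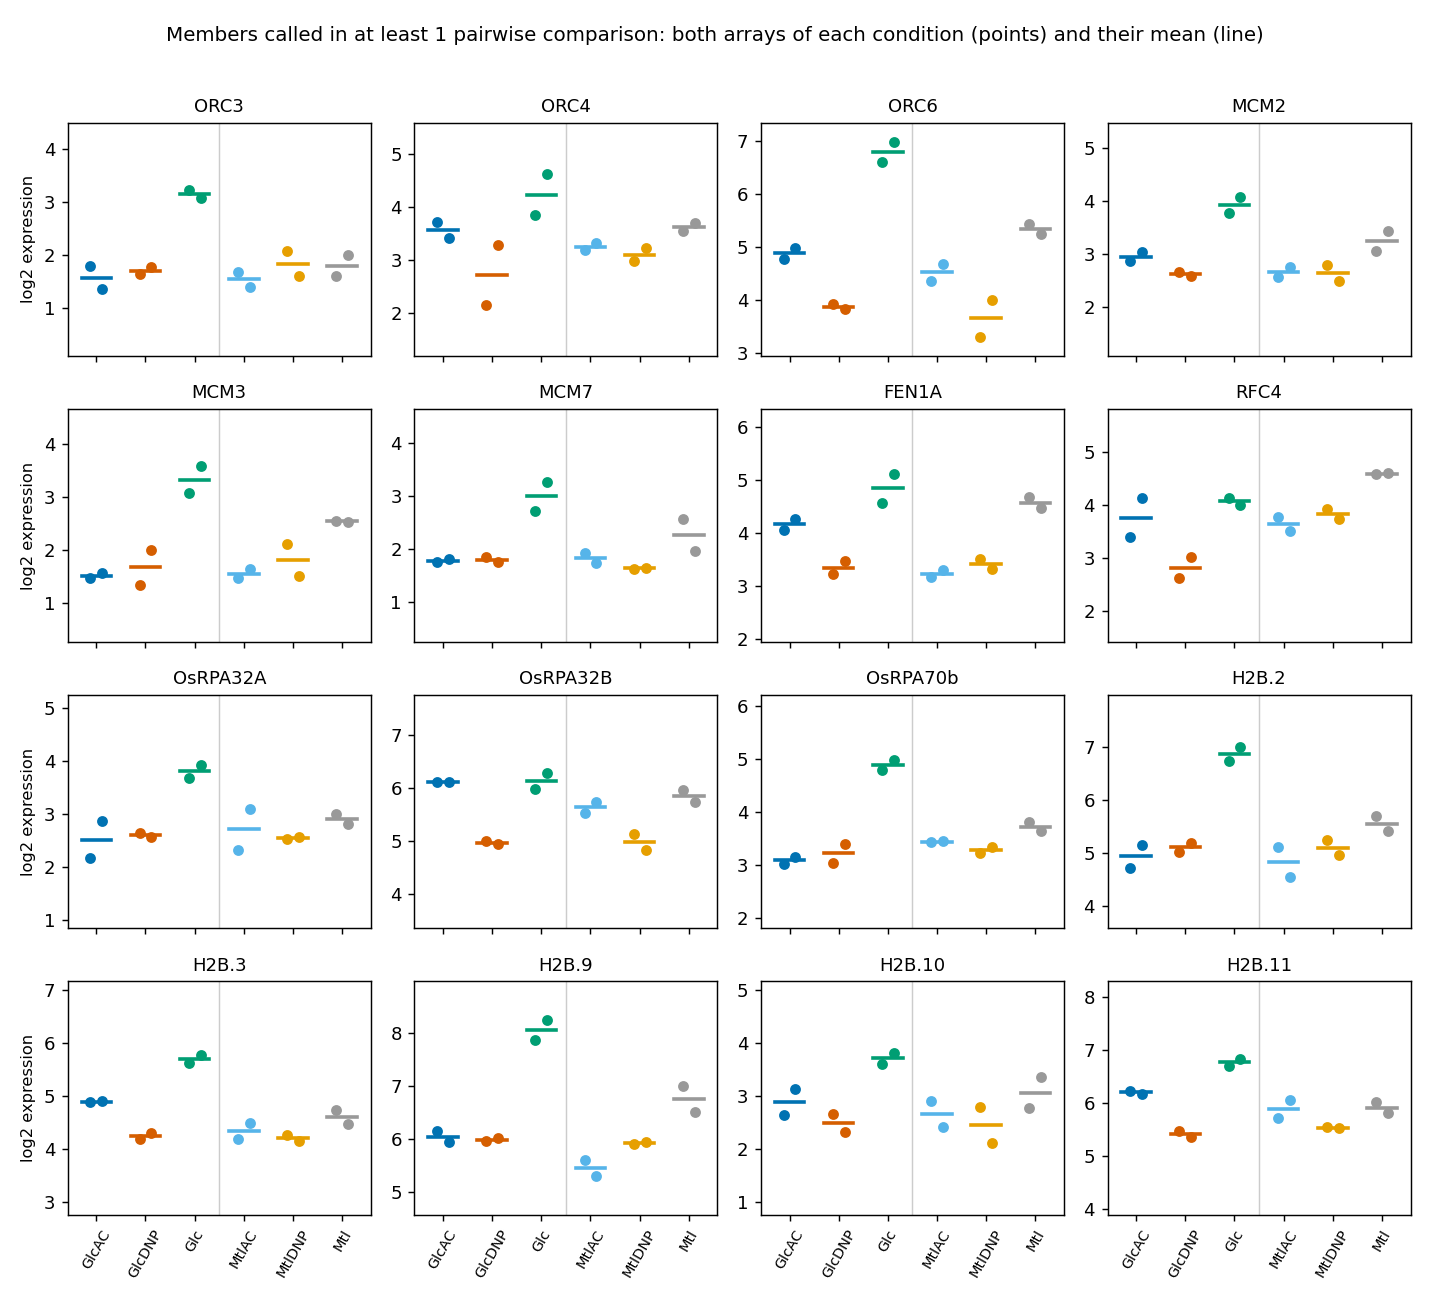
Log2 expression of the 16 called genes (panels) on both arrays of each condition (points; the line is their mean), with the glucose conditions to the left of the mannitol conditions. The 2 Glc arrays stand above all others for 13 of them, and are not apart in FEN1A, RFC4 and OsRPA32B. All 16 were called lower in GlcDNP than in Glc, so high Glc arrays partly follow from how they were picked. Among all 37 genes it was 21, against 6.92% of all probes.

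Among the origin recognition genes, ORC6, a subunit of the complex that marks replication origins, had the widest range. Its log2 level was 4.77 and 4.97 in GlcAC, 3.93 and 3.82 in GlcDNP, 6.61 and 6.98 in Glc, 4.35 and 4.68 in MtlAC, 3.301 and 4.00 in MtlDNP, and 5.43 and 5.25 in Mtl. Glc stood above Mtl, AC lay below its air control, and DNP lay lowest, with no overlap among the 3 glucose conditions. ORC6 was 2.74-fold higher in Glc than in Mtl (1.45 ± 0.25, adjusted p = 0.0134 in limma). It was 7.59-fold lower in GlcDNP than in Glc (-2.92 ± 0.25, adjusted p = 4.15e-05), which was the most negative difference of the 37 genes in any pairwise comparison. It was 3.22-fold lower in MtlDNP than in Mtl (-1.69 ± 0.25, adjusted p = 0.000944) and 3.79-fold lower in GlcAC than in Glc (-1.92 ± 0.25, adjusted p = 0.00149). In MtlAC against Mtl the difference of -0.82 ± 0.25 passed the p threshold (adjusted p = 0.0396) but not the size.

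ORC3, another subunit of the complex, had log2 levels of 1.78 and 1.36 in GlcAC, 1.64 and 1.77 in GlcDNP, 3.23 and 3.07 in Glc, 1.68 and 1.39 in MtlAC, 2.07 and 1.59 in MtlDNP, and 1.59 and 2.00 in Mtl. Only Glc stood out: its 2 arrays lay above the other 10, whose conditions overlapped. The probe was dim: its lowest array was at the 8.40th percentile of all probes, and even the highest, Glc replicate 1, was at the 48.7th. The differences were 1.36 ± 0.24 for Glc against Mtl (adjusted p = 0.0146 in limma), -1.45 ± 0.24 for GlcDNP against Glc (adjusted p = 0.00175) and -1.58 ± 0.24 for GlcAC against Glc (adjusted p = 0.00321). In MtlDNP against Mtl it was 0.04 ± 0.24. ORC4 had 3.71 and 3.41 in GlcAC, 2.15 and 3.28 in GlcDNP, 3.83 and 4.62 in Glc, 3.17 and 3.31 in MtlAC, 2.97 and 3.21 in MtlDNP, and 3.54 and 3.69 in Mtl. It fell in GlcDNP against Glc (-1.51 ± 0.35, adjusted p = 0.0124), where the 2 GlcDNP arrays differed from each other by more than 1 log2 unit. That call was lost without GlcDNP replicate 1, without Glc replicate 2, and with only the 4 arrays compared (highest adjusted p 0.107).

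Of the 3 uncalled origin genes, ORC1 had 3.05 and 3.21 in GlcAC, 2.86 and 3.33 in GlcDNP, 3.84 and 3.81 in Glc, 3.22 and 3.11 in MtlAC, 3.36 and 3.10 in MtlDNP, and 3.196 and 3.52 in Mtl. Its Glc arrays were again the highest, but by less than the size threshold (-0.73 ± 0.21 in GlcDNP against Glc, adjusted p = 0.0276 in limma). ORC5 stayed dim, at 1.75 and 1.54 in GlcAC, 1.28 and 1.69 in GlcDNP, 1.31 and 1.27 in Glc, 1.62 and 1.64 in MtlAC, 1.36 and 1.97 in MtlDNP, and 1.36 and 1.40 in Mtl. Its 2 Glc arrays were among the lower ones. ORC2 ranged from 2.34 to 3.38.

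The MCM helicase opens DNA ahead of the fork; MCM2, MCM3, MCM5, OsMCM6 and MCM7 are subunits of its ring, and no MCM4 probe met the rule. MCM3 had log2 levels of 1.46 and 1.57 in GlcAC, 1.34 and 1.99 in GlcDNP, 3.08 and 3.57 in Glc, 1.46 and 1.63 in MtlAC, 2.11 and 1.50 in MtlDNP, and 2.54 and 2.53 in Mtl. The Glc arrays were highest, the Mtl arrays next, and the 8 arrays with DNP or AC lay below both. The lowest array of MCM3 was at the 7.2th percentile of all probes and its highest at the 57.1th. MCM3 fell 3.16-fold in GlcDNP against Glc (-1.66 ± 0.28, adjusted p = 0.00187 in limma) and 3.51-fold in GlcAC against Glc (-1.81 ± 0.28, adjusted p = 0.00337). In mannitol, its differences were -0.72 ± 0.28 with DNP (adjusted p = 0.0697) and -0.99 ± 0.28 under AC (adjusted p = 0.0276), neither of them called. For Glc against Mtl it was 0.79 ± 0.28 (adjusted p = 0.227).

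MCM7 had 1.76 and 1.80 in GlcAC, 1.85 and 1.75 in GlcDNP, 2.72 and 3.26 in Glc, 1.93 and 1.73 in MtlAC, 1.62 and 1.64 in MtlDNP, and 2.57 and 1.97 in Mtl. All 8 arrays with DNP or AC lay between 1.62 and 1.93, below the 4 arrays of Glc and Mtl, the lowest of which had 1.97. MCM7 was dim, with its lowest array at the 11.2th percentile of all probes and its highest at the 50.0th. It fell in GlcDNP against Glc (-1.19 ± 0.24, adjusted p = 0.00539 in limma) and in GlcAC against Glc (-1.21 ± 0.24, adjusted p = 0.013); the first call was lost without Glc replicate 2, and the second without that array or either GlcAC array, and with the 4 arrays fitted alone. MCM2 had 2.86 and 3.04 in GlcAC, 2.66 and 2.58 in GlcDNP, 3.78 and 4.07 in Glc, 2.57 and 2.75 in MtlAC, 2.80 and 2.49 in MtlDNP, and 3.06 and 3.44 in Mtl. It fell in GlcDNP against Glc (-1.31 ± 0.20, adjusted p = 0.00123 in limma). In GlcAC against Glc the difference of -0.98 ± 0.20 (adjusted p = 0.016) was just inside the size threshold.

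MCM5 had 3.03 and 2.82 in GlcAC, 2.90 and 2.86 in GlcDNP, 3.86 and 3.52 in Glc, 3.17 and 2.84 in MtlAC, 2.92 and 3.23 in MtlDNP, and 3.05 and 3.05 in Mtl. Only its Glc arrays stood apart, with -0.81 ± 0.20 in GlcDNP against Glc (adjusted p = 0.0146 in limma), which was not called for size. OsMCM6 ranged over 0.74 log2 units, with 3.01 and 3.10 in Glc as its highest arrays. All 5 ring subunits thus had both Glc arrays above the other 10. MCM8 and MCM9, relatives of the ring subunits known in animals for homologous recombination, differed from each other. MCM8 was highest in Glc (3.26 and 3.36) and lowest in GlcDNP (2.38 and 2.31), a difference of -0.96 ± 0.24 (adjusted p = 0.0166 in limma). MCM9 differed by -0.07 ± 0.19 in the same comparison and was highest in MtlDNP, at 3.24 and 3.38.

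In the clamp and loader group, FEN1A, a flap endonuclease, was called with DNP and under AC but not for sugar in air. Its log2 levels were 4.06 and 4.28 in GlcAC, 3.23 and 3.47 in GlcDNP, 4.58 and 5.12 in Glc, 3.17 and 3.3 in MtlAC, 3.52 and 3.32 in MtlDNP, and 4.68 and 4.47 in Mtl. Glc and Mtl overlapped (0.28 ± 0.21, adjusted p = 0.668 in limma). It fell 2.84-fold in GlcDNP against Glc (-1.50 ± 0.21, adjusted p = 0.000783), 2.22-fold in MtlDNP against Mtl (-1.15 ± 0.21, adjusted p = 0.00339) and 2.53-fold in MtlAC against Mtl (-1.34 ± 0.21, adjusted p = 0.00193). In GlcAC against Glc the difference was -0.68 ± 0.21 (adjusted p = 0.0876), and FEN1A is the 1 gene of the 16 called in both mannitol comparisons. FEN1B, its paralogue, was called in none, with 4.09 and 4.21 in GlcAC, 3.27 and 3.61 in GlcDNP, 3.65 and 4.05 in Glc, 3.78 and 4.04 in MtlAC, 3.75 and 3.76 in MtlDNP, and 4.27 and 4.30 in Mtl. Both Mtl arrays were its highest.

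RFC4, a small subunit of the clamp loader, had 3.39 and 4.12 in GlcAC, 2.62 and 3.01 in GlcDNP, 4.14 and 3.99 in Glc, 3.77 and 3.51 in MtlAC, 3.92 and 3.74 in MtlDNP, and 4.58 and 4.61 in Mtl. Mtl was highest here and GlcDNP lowest. It fell in GlcDNP against Glc (-1.25 ± 0.25, adjusted p = 0.00521 in limma), while in MtlDNP against Mtl the difference was -0.76 ± 0.25 (adjusted p = 0.0414). RFC5 had 3.88 and 3.63 in GlcAC, 4.00 and 3.63 in GlcDNP, 4.65 and 4.61 in Glc, 3.00 and 3.36 in MtlAC, 3.76 and 3.76 in MtlDNP, and 3.73 and 3.73 in Mtl. Its Glc arrays were highest, and its differences of -0.81 ± 0.19 with DNP (adjusted p = 0.013) and -0.88 ± 0.19 under AC (adjusted p = 0.0215) in glucose stayed inside the size threshold.

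PCNA, the sliding clamp and a standard marker of S phase, was dim on this array and was not called. Its levels were 2.22 and 2.24 in GlcAC, 1.95 and 1.92 in GlcDNP, 2.25 and 3.13 in Glc, 2.05 and 1.93 in MtlAC, 1.94 and 1.88 in MtlDNP, and 1.96 and 1.93 in Mtl. Glc replicate 2 stood alone, and the other Glc array lay just above the GlcAC arrays. For Glc against Mtl the difference was 0.75 ± 0.25 (adjusted p = 0.198 in limma). RFC1, the large subunit of the loader, RFC2 and RFC3 were uncalled and had ranges of 0.96, 0.65 and 0.77 log2 units over the 12 arrays.

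RPA is a trimer of a large (70), a middle (32) and a small (14) subunit. Rice is known for several large and middle subunits: OsRPA70a and OsRPA32B (also called OsRPA32-2) have been assigned to a chloroplast complex, and OsRPA70b with OsRPA32A, and OsRPA70c with OsRPA32C, to nuclear complexes. OsRPA70b had log2 levels of 3.02 and 3.14 in GlcAC, 3.04 and 3.39 in GlcDNP, 4.78 and 4.98 in Glc, 3.43 and 3.44 in MtlAC, 3.22 and 3.34 in MtlDNP, and 3.80 and 3.63 in Mtl. The Glc arrays stood more than 0.9 above every other array. It was 2.25-fold higher in Glc than in Mtl (1.17 ± 0.18, adjusted p = 0.00661 in limma), 3.17-fold lower in GlcDNP than in Glc (-1.66 ± 0.18, adjusted p = 0.000139) and 3.48-fold lower in GlcAC than in Glc (-1.80 ± 0.18, adjusted p = 0.000292). In mannitol the differences were -0.43 ± 0.18 with DNP (adjusted p = 0.0905) and -0.28 ± 0.18 under AC (adjusted p = 0.28).

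OsRPA32A, assigned to the same complex, had 2.16 and 2.86 in GlcAC, 2.64 and 2.57 in GlcDNP, 3.68 and 3.92 in Glc, 2.32 and 3.09 in MtlAC, 2.52 and 2.57 in MtlDNP, and 2.99 and 2.80 in Mtl. Its Glc arrays also stood above all others, with differences of -1.19 ± 0.28 in GlcDNP against Glc (adjusted p = 0.0133 in limma) and -1.29 ± 0.28 in GlcAC against Glc (adjusted p = 0.0214). The DNP call was lost without Glc replicate 2 or either GlcDNP array. The AC call was lost without either Glc array or GlcAC replicate 1, and with the 4 arrays alone (highest adjusted p 0.151).

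OsRPA32B had another pattern, with 6.11 and 6.10 in GlcAC, 4.99 and 4.94 in GlcDNP, 5.98 and 6.28 in Glc, 5.53 and 5.74 in MtlAC, 5.14 and 4.82 in MtlDNP, and 5.96 and 5.74 in Mtl. It was lower on all 4 DNP arrays than on any other. The differences were -1.16 ± 0.19 in GlcDNP against Glc (adjusted p = 0.00164 in limma) and -0.87 ± 0.19 in MtlDNP against Mtl (adjusted p = 0.00707, inside the size threshold), against -0.02 ± 0.19 in GlcAC against Glc. The call of OsRPA32B in GlcDNP against Glc was lost when the values were quantile normalised again (-0.91). OsRPA70a, its named partner, varied little: 3.48 and 3.71 in GlcAC, 3.56 and 3.63 in GlcDNP, 3.65 on both Glc arrays, 3.32 and 3.55 in MtlAC, 3.45 and 3.58 in MtlDNP, and 4.05 and 3.53 in Mtl.

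OsRPA70c had 5.27 and 5.16 in GlcAC, 6.00 and 5.76 in GlcDNP, 5.47 and 5.89 in Glc, 5.64 and 5.13 in MtlAC, 5.67 and 5.80 in MtlDNP, and 5.20 and 5.34 in Mtl. It did not follow OsRPA70b: the difference in GlcDNP against Glc was 0.20 ± 0.22 (adjusted p = 0.542 in limma). OsRPA32C, which shares its assigned complex, ranged from 2.87 to 3.79, with Mtl lowest. OsRPA14, the small subunit, was not called, with 3.04 and 3.18 in GlcAC, 3.47 and 3.19 in GlcDNP, 3.81 and 3.19 in Glc, 3.32 and 3.01 in MtlAC, 3.27 and 3.06 in MtlDNP, and 2.87 and 3.17 in Mtl. Glc replicate 1 was its highest array, and the other Glc array lay among the rest.

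**Figure D3:**
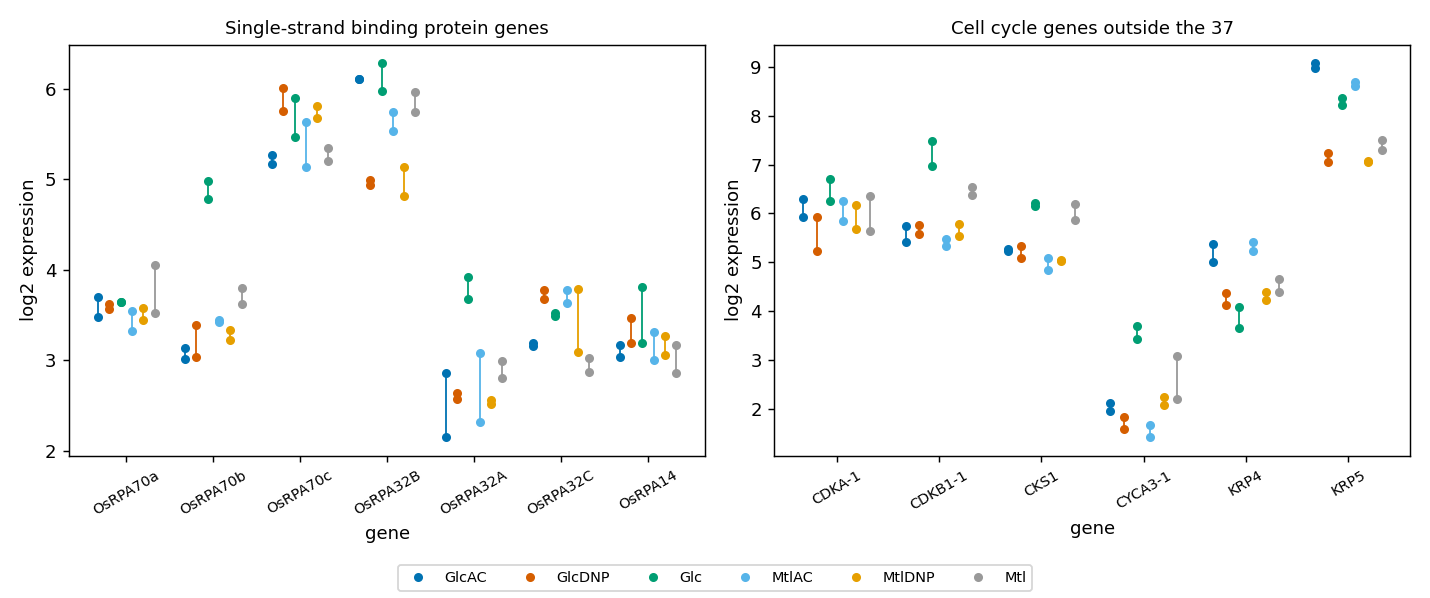
Log2 expression of the 7 RPA genes (left) and of 6 cell cycle genes outside the 37 (right) on both arrays of each condition (points joined by a line; colours give the condition). OsRPA70b and OsRPA32A stand highest in Glc, OsRPA32B is lowest on the 4 DNP arrays, and KRP5 is highest in GlcAC and MtlAC.

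The H2B histones, which pair with H2A in the nucleosome core, had 5 of 9 genes called in at least 1 comparison, against the 25.2% of all probes given above. H2B.9 had log2 levels of 6.15 and 5.95 in GlcAC, 5.98 and 6.02 in GlcDNP, 7.88 and 8.25 in Glc, 5.61 and 5.31 in MtlAC, 5.92 and 5.96 in MtlDNP, and 7.01 and 6.52 in Mtl. Glc was highest and Mtl next, and the 8 arrays with DNP or AC lay below both. It was 2.47-fold higher in Glc than in Mtl (1.31 ± 0.21, adjusted p = 0.0106 in limma), 4.19-fold lower in GlcDNP than in Glc (-2.07 ± 0.21, adjusted p = 0.000119) and 4.04-fold lower in GlcAC than in Glc (-2.01 ± 0.21, adjusted p = 0.000452). It was 2.46-fold lower in MtlAC than in Mtl (-1.30 ± 0.21, adjusted p = 0.00229), a call that was lost when the values were quantile normalised again (-0.95). In that setting the difference of H2B.9 in GlcDNP against Glc was smaller in size, at -1.59, and its call was kept.

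H2B.2 had 4.72 and 5.15 in GlcAC, 5.02 and 5.18 in GlcDNP, 6.73 and 7.002 in Glc, 5.12 and 4.55 in MtlAC, 5.24 and 4.96 in MtlDNP, and 5.70 and 5.41 in Mtl. Its Glc arrays stood more than 1 log2 unit above every other array. The differences were 1.31 ± 0.24 in Glc against Mtl (adjusted p = 0.0207 in limma), -1.76 ± 0.24 in GlcDNP against Glc (adjusted p = 0.00065) and -1.93 ± 0.24 in GlcAC against Glc (adjusted p = 0.00123). The call of H2B.2 in Glc against Mtl was lost without any 1 of the 4 arrays and with the 4 arrays alone. H2B.3 had 4.88 and 4.91 in GlcAC, 4.18 and 4.31 in GlcDNP, 5.62 and 5.78 in Glc, 4.19 and 4.49 in MtlAC, 4.27 and 4.14 in MtlDNP, and 4.74 and 4.47 in Mtl. Here GlcAC lay between GlcDNP and Glc. H2B.3 was higher in Glc than in Mtl (1.09 ± 0.18, adjusted p = 0.0103 in limma) and lower in GlcDNP than in Glc (-1.45 ± 0.18, adjusted p = 0.000319), while GlcAC against Glc gave -0.80 ± 0.18 (adjusted p = 0.0224), inside the size threshold.

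H2B.11 had 6.22 and 6.17 in GlcAC, 5.46 and 5.36 in GlcDNP, 6.71 and 6.83 in Glc, 5.72 and 6.06 in MtlAC, 5.55 and 5.52 in MtlDNP, and 6.01 and 5.80 in Mtl. All 4 DNP arrays were lower than the other 8, and the call was in GlcDNP against Glc (-1.36 ± 0.17, adjusted p = 0.000408 in limma). H2B.10 had 2.64 and 3.13 in GlcAC, 2.65 and 2.31 in GlcDNP, 3.61 and 3.82 in Glc, 2.90 and 2.42 in MtlAC, 2.80 and 2.10 in MtlDNP, and 2.77 and 3.36 in Mtl. It fell in GlcDNP against Glc (-1.23 ± 0.31, adjusted p = 0.0164 in limma), a call lost without Glc replicate 2 or GlcDNP replicate 2.

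Among the 4 uncalled histones, H2B.5 had 4.67 and 4.11 in GlcAC, 5.09 and 5.01 in GlcDNP, 4.68 and 5.09 in Glc, 4.34 and 4.63 in MtlAC, 5.09 and 5.25 in MtlDNP, and 4.12 and 4.40 in Mtl. It was not lower with DNP: GlcDNP against Glc gave 0.17 ± 0.23, and MtlDNP against Mtl gave 0.91 ± 0.23 (adjusted p = 0.0164 in limma), higher but inside the size threshold. When the values were quantile normalised again, H2B.5 was called higher in MtlDNP against Mtl (1.05, adjusted p = 0.00727 in limma). H2B.4 was dim on every array, with 0.86 and 1.19 in GlcAC, 1.27 and 0.92 in GlcDNP, 0.82 and 0.72 in Glc, 1.56 and 1.11 in MtlAC, 1.26 and 0.76 in MtlDNP, and 0.96 and 1.27 in Mtl, and its Glc arrays were not among the higher ones. H2B.6 ranged from 3.52 to 4.88 with both Glc arrays highest, and H2B.7 from 2.18 to 3.33. H2B genes are near-identical copies, and how far their probes share signal was not checked, so the levels of single copies are uncertain.

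AC and DNP were also set against each other. In glucose, GlcAC was higher than GlcDNP for 2 of the 37 genes and lower for 0. Of all 36643 probes, 3.97% were called higher and 475 probes were called lower, so the counts among the 37 are near these shares. The 2 genes were OsRPA32B (1.14 ± 0.19, adjusted p = 0.00502 in limma) and ORC6 (1.001 ± 0.251, adjusted p = 0.0364). Both calls were lost when the values were quantile normalised again. The ORC6 call was also lost without any 1 of the 4 arrays. It was lost with the 4 arrays alone too, where the count was 1. The OsRPA32B call was kept in those settings. H2B.11 (0.79 ± 0.17, adjusted p = 0.0208), FEN1A (0.82 ± 0.21, adjusted p = 0.0436) and RFC4 (0.94 ± 0.25, adjusted p = 0.0449) passed the p threshold only. In mannitol, MtlAC against MtlDNP gave 0 calls in limma, with 1.56% of all probes called higher; at an unadjusted p under 0.05 there were 2 genes higher and 2 lower, beside 7.36% and 7.78% of all probes. The count was 1 without MtlDNP replicate 2.

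**Figure D4:**
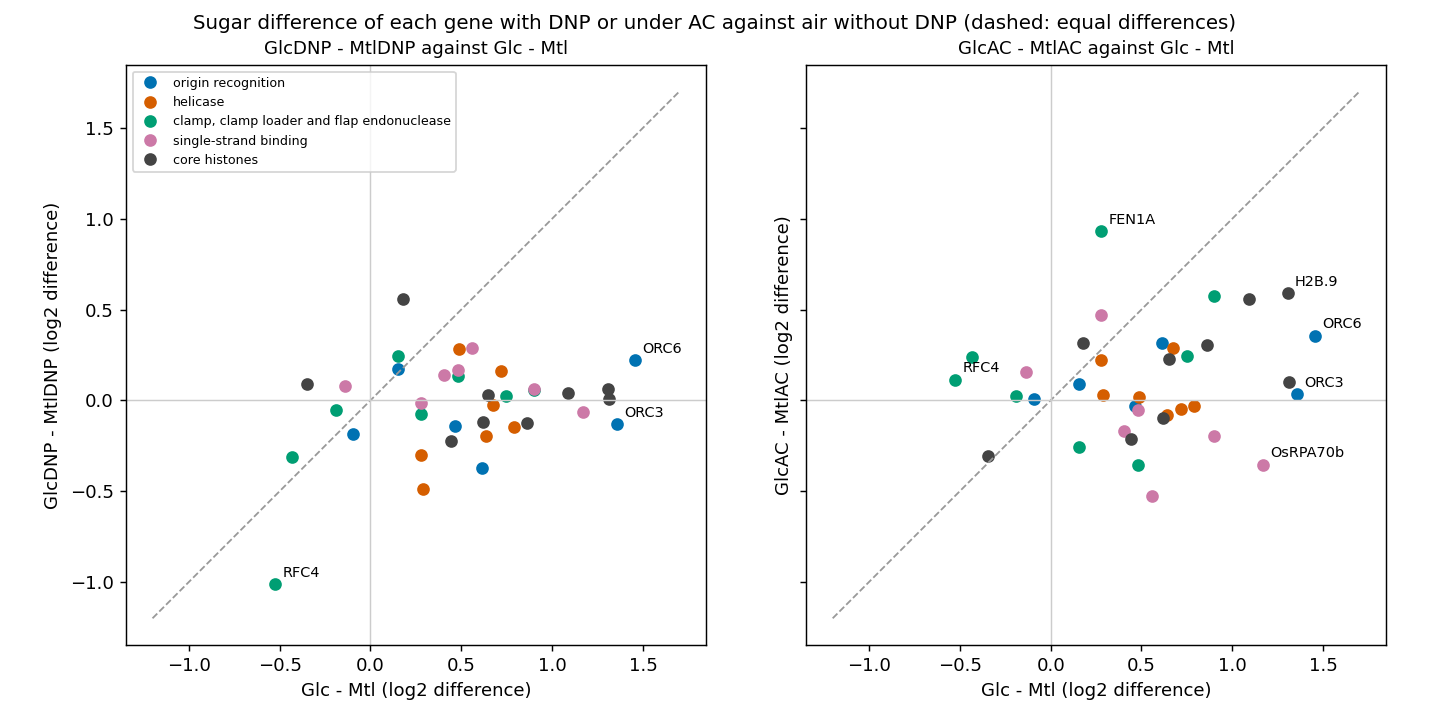
Sugar difference (glucose minus mannitol, log2, 2 arrays in each condition) of the 37 genes with DNP (left) and under AC (right), each against the same difference in air without DNP on the horizontal axis; colours give the role and the dashed line marks equal differences. Above 0 lie 31 of the 37 in air, 19 with DNP and 23 under AC, against 55.5%, 49.3% and 45.8% of all probes. The medians of the 37 are 0.49, 0.005 and 0.04 in that order.

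Whether the sugar difference itself changed was tested with interaction terms. With DNP, the term (GlcDNP minus MtlDNP, less Glc minus Mtl) was called for 0 of the 37 in limma, with 0.180% of all probes called lower. At an unadjusted p under 0.05 there were 12 genes lower and 0 higher, beside 5.54% of all probes lower and 6.00% higher. The median was -0.60, beside -0.05 over all probes. OsRPA70b came nearest (-1.23 ± 0.25, adjusted p = 0.0533), while ORC3 was the most negative at -1.49 ± 0.34 (adjusted p = 0.0856). Under AC, the term was called lower for 1 of the 37, OsRPA70b (-1.52 ± 0.25, adjusted p = 0.0235 in limma), with 0.147% of all probes called lower. Its sugar difference was -0.35 ± 0.18 under AC and 1.17 ± 0.18 in air. The call was lost without any 1 of the 8 arrays, with an adjusted p of up to 0.107. Over the 37, 11 genes were lower and 1 higher at an unadjusted p under 0.05, beside 5.99% of all probes lower and 8.58% higher, with a median of -0.50 beside -0.05 over all probes.

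Cell cycle genes outside the rule were matched by name: 19 cyclins, 11 cyclin-dependent kinases and their inhibitors, the polymerase delta genes POLD1 and POLD2, the thymidine kinase TK, the centromeric histone CenH3, the histone chaperones FAS2 and MSI1, and the retinoblastoma-related genes OsRBR1 and RBR2. For Glc against Mtl, 0 of these 38 genes were called in limma, beside 0.469% of all probes called higher and 1.53% lower. The difference was positive for 15 of the 19 cyclins and 9 of the 11 genes in the kinase list, against 55.5% of all probes. In GlcDNP against Glc, 1 cyclin and 2 genes of the kinase list fell and 0 rose, beside 9.28% of all probes called lower. In GlcAC against Glc, 3 cyclins fell, and in the kinase list 1 fell and 1 rose, beside 3.25% of all probes called lower and 2.01% higher. In MtlAC against Mtl, 1 cyclin fell, and in the kinase list 2 fell and 1 rose, beside 8.65% of all probes called lower and 3.56% higher. MtlDNP against Mtl gave 0 calls in limma, beside 10.4% of all probes called lower. Whether the shares among the 38 differ from those of all probes was not tested.

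CDKB1-1, a plant-specific mitotic kinase, had log2 levels of 5.42 and 5.74 in GlcAC, 5.59 and 5.76 in GlcDNP, 6.97 and 7.48 in Glc, 5.32 and 5.47 in MtlAC, 5.54 and 5.79 in MtlDNP, and 6.54 and 6.38 in Mtl. As for H2B.9, Glc was highest, Mtl next and the other 8 arrays lowest. It fell in GlcDNP (-1.55 ± 0.22, adjusted p = 0.000669 in limma) and in GlcAC (-1.65 ± 0.22, adjusted p = 0.00154) against Glc, and in MtlAC against Mtl (-1.06 ± 0.22, adjusted p = 0.00695). CYCA3-1, an A-type cyclin, fell in GlcDNP (-1.85 ± 0.27, adjusted p = 0.000896) and in GlcAC (-1.52 ± 0.27, adjusted p = 0.0077) against Glc, and in MtlAC against Mtl (-1.09 ± 0.27, adjusted p = 0.0174).

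KRP4 and KRP5 encode inhibitors of cyclin-dependent kinases and stood highest under AC. KRP5 had 9.08 and 8.99 in GlcAC, 7.06 and 7.24 in GlcDNP, 8.23 and 8.37 in Glc, 8.62 and 8.70 in MtlAC, 7.05 and 7.07 in MtlDNP, and 7.50 and 7.31 in Mtl. AC was highest and DNP lowest with either sugar. KRP5 rose in MtlAC against Mtl (1.26 ± 0.16, adjusted p = 0.000526 in limma) and fell in GlcDNP against Glc (-1.15 ± 0.16, adjusted p = 0.000724). It was 3.68-fold higher in GlcAC than in GlcDNP (1.88 ± 0.16, adjusted p = 0.00017) and 3.04-fold higher in MtlAC than in MtlDNP (adjusted p = 0.00062). KRP4 rose in GlcAC against Glc (1.33 ± 0.22, adjusted p = 0.005 in limma).

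Some embryo markers were called in the comparisons in which replication genes fell. In GlcDNP against Glc, 4 of the 6 embryo markers rose in limma, with 4.67% of all probes called higher: Emp1 (2.47 ± 0.17, adjusted p = 1.47e-05), OLE18 (1.95 ± 0.17, adjusted p = 5.01e-05), RAB21 (1.96 ± 0.22, adjusted p = 0.000192) and LEA-3 (1.70 ± 0.16, adjusted p = 6.27e-05). These encode a late-embryogenesis protein, an oleosin of oil bodies, a dehydrin and another late-embryogenesis protein. The homeobox genes OSH1 (-0.40 ± 0.21, adjusted p = 0.187) and OSH15 (-0.05 ± 0.20, adjusted p = 0.894), the other 2 embryo markers, were not called. Emp1, LEA-3 and OLE18, 3 of the 6, rose in MtlDNP against Mtl, with 5.91% of all probes called higher, and in MtlAC against Mtl, with 3.56%. In GlcAC against Glc, 1 rose, Emp1 (1.16 ± 0.17, adjusted p = 0.0028 in limma), with 2.01% of all probes called higher. In Glc against Mtl, RAB21 fell (-1.47 ± 0.22, adjusted p = 0.0064 in limma), with 1.53% of all probes called lower.

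Of the 10 starchy endosperm markers, 9 had a positive difference in GlcDNP against Glc (median 0.29, 1 called higher), 9 in MtlDNP against Mtl (median 0.36) and 9 in MtlAC against Mtl (median 0.62), and 6 in GlcAC against Glc (median 0.14, 1 called higher). The shares of all probes with a positive difference were 56.8%, 58.0%, 56.5% and 52.5% in that order. In the glucose comparisons 4.67% of all probes were called higher with DNP and 2.01% under AC. The gene called higher in both glucose comparisons was GLUA-1, a glutelin, at 1.84 ± 0.28 with DNP (adjusted p = 0.00111 in limma) and 1.12 ± 0.28 under AC (adjusted p = 0.0367). GLB1, a globulin, fell in both mannitol comparisons, by 1.15 ± 0.21 on the log2 scale with DNP (adjusted p = 0.00287 in limma) and by 1.18 ± 0.21 under AC (adjusted p = 0.00331). In Glc against Mtl, 8 of the 10 had a negative difference (median -0.21), with GLUA-1 called lower. Of all probes, 55.5% had a positive difference there (median 0.04) and 1.53% were called lower. The part of the embryo and endosperm markers in the replication results was not tested.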

How the data were processed

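Values are the log2 expression values deposited by the authors in 1 table of 36643 probes and 12 arrays, 1 column per array. Per the labels, the authors made them with RMA in Expression Console, as a core-exon analysis; the submitters' processing notes name Affymetrix Power Tools. Tool versions, the genome build and the log base are not stated, and the base was taken as 2 from the range of -0.49 to 13.12. Probe names came from the array's platform annotation, and the gene numbers of all 24161 probes with 1 gene are in the RefSeq table. A further 90 probes carry several genes and 12392 are unnamed here. For arrays, their number limits the precision.

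One coefficient per condition was fitted over the 12 arrays with limma 3.58.1 (R 4.3.3; lmFit and eBayes with no trend, on 6 residual and 3.82 prior degrees of freedom), with names matched in Python 3.11.15, and 11 comparisons were taken. The script was tested on simulated data. Calls needed a Benjamini-Hochberg adjusted p under 0.05 and a log2 difference of at least 1. Values on every array are given for members called in at least 1 comparison and for the uncalled members with the highest and lowest mean level in each of 4 role groups (origin recognition with helicase, clamp and loader, RPA, histones). Those of MCM5, RFC5 and OsRPA70a, and the parts given for MCM8, MCM9 and OsMCM6, were added after their values were seen. Other lists were matched by name. The members and lists were chosen with earlier results of these data known. Alternatives were a second quantile normalisation, a filter on dim probes, limma-trend with robust fitting, a replicate block, only the arrays compared, no size threshold, and each array left out.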

Additional observations from a re-analysis of the deposited data

Results flagged for a closer look

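The effect of glucose over mannitol on OsRPA70b, the large RPA subunit of a nuclear complex, differed between the AC incubation and air by the interaction term itself, at -1.52 ± 0.25 on the log2 scale (adjusted p = 0.0235 in limma, 2 arrays in each of 4 conditions). Glucose minus mannitol was -0.35 under AC and 1.17 in air. It was the only term of either interaction called among the 37 genes, and the call was lost without any 1 of the 8 arrays.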

How the results depend on the processing

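Of 37 calls of named members, 20 were kept in every setting run; over 326 combinations of call and setting, 271 kept the call, 55 lost it and 0 reversed. With no size threshold, 1 member was called for GlcAC against MtlAC, higher, beside 3.09% of all probes higher and 0.759% lower. For MtlDNP against Mtl there were 7, 1 higher and 6 lower, beside 15.9% of all probes higher and 16.1% lower. For MtlAC against Mtl there were 6, 1 higher and 5 lower, beside 10.5% and 13.6%. For GlcAC against GlcDNP there were 5, all higher, beside 6.03% higher and 2.64% lower. With only probes above the median level, which kept 18 of the 37 members, the count of members called was 10 for GlcDNP against Glc. In that setting it was 4 for GlcAC against Glc and 2 for the interaction of sugar and DNP. Limma-trend with robust fitting gave 1 for that interaction. Quantile normalising again gave 0 for GlcAC against GlcDNP. With only the arrays compared, it was 1 for Glc against Mtl and 1 for GlcAC against GlcDNP.

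Leaving out 1 array at a time gave 0 to 5 members for Glc against Mtl, 12 to 19 for GlcDNP against Glc, 2 to 4 for MtlDNP against Mtl, 6 to 8 for GlcAC against Glc, 2 to 3 for MtlAC against Mtl, 1 to 2 for GlcAC against GlcDNP, 0 to 1 for MtlAC against MtlDNP, and 0 for both interactions. GlcDNP against Glc had 12 without Glc replicate 2. The cause of these changes was not tested. With the replicate number as a block, the counts were 6 for Glc against Mtl, 16 and 2 for DNP with glucose and mannitol, 8 and 2 for AC, 2 for GlcAC against GlcDNP, 1 for the interaction with AC and 0 elsewhere, as without it. Arrays of the same number share only a number: over 15 pairs of conditions their deviations correlated between -0.021 and 0.087. Of the 37 members, 19 lay below the median level of all probes, where a detection limit was not analysed here.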

Other observations

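Some members lie close together in the gene order of the RefSeq table. H2B.3 and H2B.4 are 3 genes apart; H2B.3 was called in 2 comparisons and H2B.4 in none. H2B.5 and H2B.6 are 2 apart, H2B.6 and H2B.7 are 3 apart, and H2B.7 and H2B.10 are 6 apart; of these, H2B.10 was called in 1 comparison and the other 3 in none. RFC3 and OsRPA70a are 10 apart, and neither was called.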
